A study of Drosophila melanogaster with 15 samples.

Results

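The muscle sarcomere genes examined here are 33 genes that encode the proteins of the contractile apparatus of striated muscle. They were picked by gene symbol from a list chosen with earlier results of these data known. All 33 were found among the 13259 genes counted. Junction use in *Zasp52*, *Strn-Mlck* and *tn* was singled out for inclusion when the list was set. Of the splice junctions counted, 12655 of 1105894 were listed with a sarcomere gene alone, and so were 670 of the 81861 exons. RNA came from heads of *Drosophila melanogaster* of 3 genotypes, *GMR > prp4 RNAi*, *GMR > prp8 RNAi* and the control *GMR/+*, with 5 libraries each. The knockdown flies carried the *GMR* driver and an RNAi transgene of the GD collection, and the controls carried the driver alone, so that all 15 libraries share *GMR*. Flies were 3 to 5 days old, had spent at least 3 cycles in 12 h of light and 12 h of dark, and were frozen at ZT12 by the labels, where ZT0 is lights-on. The sources disagree on this hour, since the text of the study also names an earlier one. The libraries are replicates 6 to 10 of *GMR > prp4 RNAi*, 11 to 15 of *GMR > prp8 RNAi* and 1 to 5 of *GMR/+*, and the series asks how loss of these components of the tri-snRNP, a part of the spliceosome, alters expression and splicing.

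A sarcomere is the repeating unit of a myofibril. Thick filaments of myosin slide along thin filaments of actin, tropomyosin and the troponins regulate this sliding in response to calcium, Z-discs anchor the thin filaments, and giant titin-like proteins connect Z-discs with thick filaments. Fly sarcomere genes are known for making many isoforms by alternative splicing and for using different gene copies in different muscles. The head holds muscles of the mouthparts, the antennae and other small muscles, while the large flight muscles lie in the thorax. *GMR* drives expression in cells of the eye, and whole heads were sequenced, so RNA of muscle and of eye cells is mixed in each library. In such bulk samples fewer muscle cells and less RNA per muscle cell cannot be told apart.

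One library stood apart from its group. In replicate 14, labelled *GMR > prp8 RNAi*, the pigment gene *white* (*w*) had 6629 reads, against 4081 to 4613 in the other 4 *GMR > prp8 RNAi* libraries and 5524 to 6464 in *GMR > prp4 RNAi*. *CG10407* had 2064 reads in it, against 9 to 14 in the other *GMR > prp8 RNAi* libraries and 1991 to 2205 in *GMR > prp4 RNAi*. *CG10264* had 132 reads in it, against 0 in the other *GMR > prp8 RNAi* libraries and 108 to 152 in *GMR > prp4 RNAi*. In these genes it lay near the *GMR > prp4 RNAi* range, and the library labelled *GMR > prp8 RNAi* replicate 14 is kept under its label here, with the calls and the main values of *GMR > prp8 RNAi* also given without it. The targeted gene *prp4*, listed as *CG7028*, had 111 to 149 reads in *GMR > prp4 RNAi*, 161 in replicate 14 and 141 to 165 in *GMR/+*, so that in this gene replicate 14 lay in the control range and not in that of *GMR > prp4 RNAi*. *Prp8* had 1264 to 1311 reads in the *GMR > prp8 RNAi* libraries other than replicate 14 and 1572 reads in replicate 14. It had 1429 to 1617 reads in *GMR > prp4 RNAi* and 1339 to 1545 in *GMR/+*. In *Prp8* replicate 14 thus lay within the *GMR > prp4 RNAi* range and above every control. Replicate 14 also lay within the *GMR > prp4 RNAi* range in *CG13891*, *TwdlE*, *Cpr72Ec* and *klar*. The reads counted on genes were 11753627 to 11979892 per library.

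Together the 33 genes took 1.003% ± 0.023 of the gene reads in *GMR > prp4 RNAi*, 1.10% ± 0.058 in *GMR > prp8 RNAi* and 0.977% ± 0.036 in *GMR/+* (mean ± SD, n = 5 each). The 5 shares were 1.01%, 1.03%, 1.01%, 1.0003% and 0.968% in *GMR > prp4 RNAi*, and 1.15%, 1.09%, 1.09%, 1.01% and 1.14% in *GMR > prp8 RNAi*, where the value of 1.01% is that of replicate 14. They were 0.924%, 0.983%, 0.987%, 0.968% and 1.02% in *GMR/+*. Both knockdowns overlapped the control, and without replicate 14 the *GMR > prp8 RNAi* libraries lay above every other library in this share.

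Per kilobase of annotated exon, the levels of the members spanned several orders of magnitude. *Act57B*, an actin of body wall and other tubular muscles, led with 14003 reads per kb (mean of all 15 libraries). *Mp20*, a calponin-like muscle protein, followed with 3937 reads per kb, *Mlc2*, the regulatory light chain of myosin, with 3723, *Mf*, the thick filament protein myofilin, with 2043, and *Mhc*, the muscle myosin heavy chain, with 1887. At the low end of the 28 genes with enough reads for testing were *Strn-Mlck* (Stretchin-Mlck) with 69.8 reads per kb and *sls* (Sallimus) with 89.4, both titin-like giants, followed by *tn* with 114. The other genes of giant proteins lay close above, *bt* (projectin) at 135, *Msp300* at 141 and *Unc-89* (obscurin) at 143 reads per kb.

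The remaining 5 members had under 15 reads in every library and were not tested, except *TpnC41C* in 1 fit below. *TpnC41C*, a troponin C, had 7 to 13 reads in *GMR > prp4 RNAi*, 5 to 11 in *GMR > prp8 RNAi* and 4 to 14 in *GMR/+*. The troponin C genes *TpnC47D* and *TpnC4* reached at most 7 reads and 1 read, the Z-disc gene *Zasp67* at most 4 and *fln*, the flight muscle thick filament protein flightin, at most 3. *TpnC4* and *fln* mark flight muscle in the fly, and these defining markers were at or near 0 in all head libraries. The other genes on the list of flight muscle markers were not near 0, *Act88F*, the flight muscle actin, with 119 to 375 reads and 164 reads per kb, and *Strn-Mlck* with 2007 to 2606 reads. With 2 of 4 markers at or near 0 the list gave no single answer on flight muscle RNA.

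**Figure D1:**
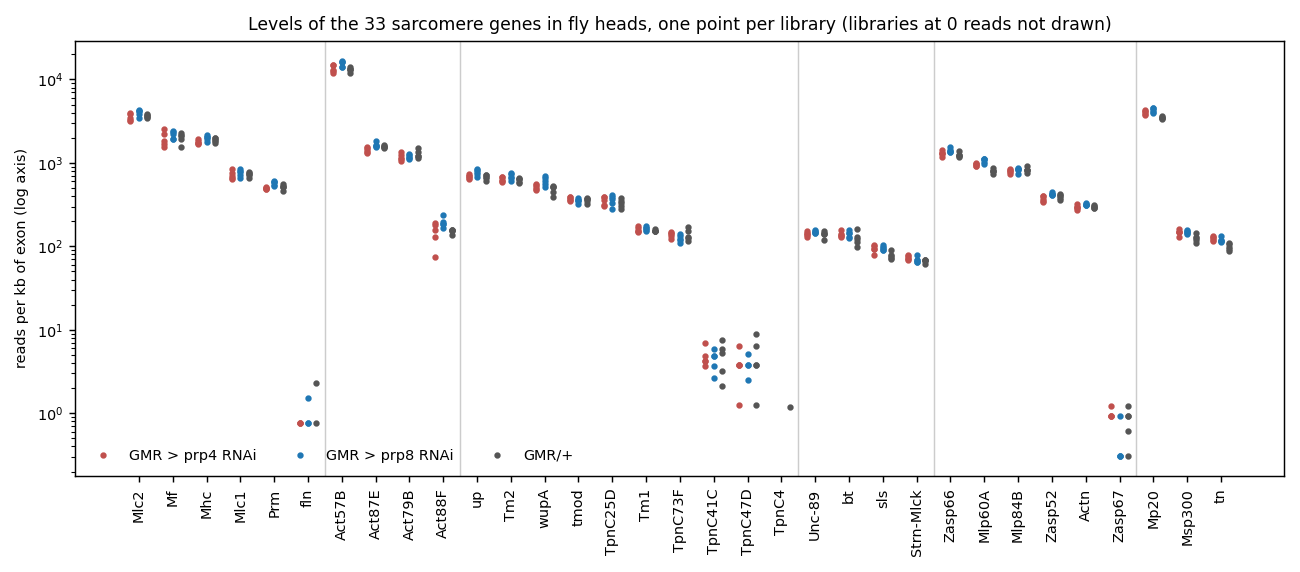
Reads per kilobase of exon (log axis) of each of the 33 sarcomere genes, grouped by role, with 1 point per library for *GMR > prp4 RNAi*, *GMR > prp8 RNAi* and *GMR/+*; libraries at 0 reads are not drawn. *Act57B* is highest, and *fln*, *TpnC41C*, *TpnC47D*, *TpnC4* and *Zasp67* lie far below the other 28 genes.

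Gene levels were compared between *GMR > prp4 RNAi* and *GMR/+* with the quasi-likelihood test of edgeR over all genes. Of the 28 members tested, 5 rose, none fell and 23 did not pass an adjusted p of 0.05; of all 9012 genes tested, 4.97% were called higher and 4.66% lower. The 5 were *tn*, *Mlp60A*, *Mp20*, *sls* and *Msp300*, with changes of 1.16-fold to 1.27-fold. The median log2 difference of the 28 members was 0.041, against -0.00082 over all genes, and 17 of the 28 lay above 0. No member was lower in all 5 *GMR > prp4 RNAi* libraries than in all 5 control libraries, and 4 were higher without overlap, *Strn-Mlck*, *Mp20*, *tn* and *Mlp60A*, against 3.64% of all genes higher without overlap and 5.05% lower.

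*tn* encodes thin, a muscle protein related to mammalian TRIM32. It had 769, 810, 786, 734 and 706 reads in *GMR > prp4 RNAi* and 597, 647, 569, 537 and 683 in *GMR/+*. Every *GMR > prp4 RNAi* library lay above every control library, and the log2 difference was 0.34 ± 0.063 (SE, edgeR adjusted p = 0.0036). *Mlp60A*, a muscle LIM protein of the Z-disc, had 2595, 2847, 2731, 2753 and 2614 reads in *GMR > prp4 RNAi* and 2295, 2096, 2487, 2256 and 2275 in *GMR/+*, again without overlap (log2 difference 0.26 ± 0.052, adjusted p = 0.0064). *Mp20* had 3921, 3694, 4062, 3596 and 3809 reads in *GMR > prp4 RNAi* and 3140, 3479, 3295, 3312 and 3347 in *GMR/+*. Its groups did not overlap either (log2 difference 0.22 ± 0.047, adjusted p = 0.0096).

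*sls*, which connects Z-discs to thick filaments, and *Msp300*, a giant nesprin that anchors nuclei and other organelles in muscle, rose with overlap between the groups. *sls* had 5520, 5553, 6129, 6029 and 4703 reads in *GMR > prp4 RNAi* and 4314, 4590, 4577, 4205 and 5268 in *GMR/+* (log2 difference 0.30 ± 0.073, adjusted p = 0.020). Replicate 10 was the lowest *GMR > prp4 RNAi* library and replicate 5 the highest control. *Msp300* had 10388, 10383, 11130, 10492 and 9007 reads in *GMR > prp4 RNAi* and 7567, 8940, 8857, 8408 and 10072 in *GMR/+* (log2 difference 0.25 ± 0.070, adjusted p = 0.042). The same 2 libraries set the overlap. The *sls* call was lost without control replicate 2 or 4 or without *GMR > prp4 RNAi* replicate 8 (adjusted p = 0.052, 0.062 and 0.062), and *Msp300* kept its call only without control replicate 5 or without *GMR > prp4 RNAi* replicate 10; without each of the other 8 libraries the adjusted p was 0.069 to 0.11, and scaling by library size alone gave 0.070. An antisense RNA overlaps exons of *sls*, and whether the counting used strand is not given in the sources used here.

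The comparison of *GMR > prp8 RNAi* with *GMR/+* used the same 5 control libraries, so its values stand beside those above and are not a second independent test. With all 5 *GMR > prp8 RNAi* libraries 5 of 28 members rose and none fell, where 2.36% of all genes were called higher and 2.37% lower. Without replicate 14 the count was 9 of 28 higher and none lower, where 2.93% of all genes were called higher and 2.84% lower. The median log2 difference of the members was 0.11 with all 5 libraries, with 24 of 28 above 0, and 0.17 without replicate 14, with 25 of 28 above 0. The medians over all genes were -0.0013 and 9.7e-05. Groups that did not overlap were found for 7 members with all 5 libraries, all higher, where 2.92% of all genes lay higher and 2.48% lower. Without replicate 14 they were found for 10 members, again all higher, where 4.19% of all genes lay higher and 4.13% lower. Leaving out control replicate 4 or *GMR > prp8 RNAi* replicate 11 left 2 members higher, and leaving out control replicate 3 or *GMR > prp8 RNAi* replicate 13 left 3.

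*Mlp60A* had the smallest p among the members. It had 3163, 2930, 3154, 2747 and 3193 reads in *GMR > prp8 RNAi*, where 2747 is replicate 14, and 2295, 2096, 2487, 2256 and 2275 in *GMR/+* (log2 difference 0.40 ± 0.063, adjusted p = 0.0027). Every *GMR > prp8 RNAi* library was above every control library, and without replicate 14 the log2 difference was 0.44 (adjusted p = 0.00025). *Mp20* had 4369, 4052, 4303, 3880 and 3723 reads in *GMR > prp8 RNAi* and 3140 to 3479 in *GMR/+*, without overlap (log2 difference 0.28 ± 0.053, adjusted p = 0.0089; 0.31, adjusted p = 0.0032 without replicate 14). *sls* had 6037, 5601, 5360, 5400 and 5817 reads in *GMR > prp8 RNAi* and 4205 to 5268 in *GMR/+*, also without overlap (log2 difference 0.29 ± 0.062, adjusted p = 0.018; 0.31, adjusted p = 0.011 without replicate 14). The *sls* call was lost without control replicate 4 (adjusted p = 0.053) or without *GMR > prp8 RNAi* replicate 11 (adjusted p = 0.056).

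For *tn* and *Act88F* the call depended on single libraries. *tn* had 739, 714, 721, 824 and 695 reads in *GMR > prp8 RNAi* and 537 to 683 in *GMR/+* (log2 difference 0.27 ± 0.066, adjusted p = 0.030). The highest of these, 824, was replicate 14, and without it the log2 difference was 0.24 (adjusted p = 0.058) although the groups still did not overlap. The call was also lost without control replicate 3 or 4 or *GMR > prp8 RNAi* replicate 11, 12 or 13, with adjusted p up to 0.088. *Act88F* had 310, 265, 299, 298 and 375 reads in *GMR > prp8 RNAi* and 242, 248, 248, 253 and 218 in *GMR/+* (log2 difference 0.34 ± 0.088, adjusted p = 0.038). It lay higher in every *GMR > prp8 RNAi* library and lost its call without any of the 5 controls or without *GMR > prp8 RNAi* replicate 11 or 13 (adjusted p = 0.053 to 0.081), and in the fit of all 15 libraries its adjusted p was 0.26. In that fit the spread includes *GMR > prp4 RNAi*, where *Act88F* had 119, 250, 209, 305 and 290 reads.

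Without replicate 14, 5 more members were called higher against *GMR/+*. *wupA*, troponin I, had 1395, 1091, 1211 and 1290 reads in the 4 *GMR > prp8 RNAi* libraries, 1030 in replicate 14 and 1036, 1021, 772, 888 and 1015 in *GMR/+* (log2 difference 0.39, adjusted p = 0.020 without replicate 14; 0.34, adjusted p = 0.060 with it). *up*, troponin T, had 2073, 1871, 1978 and 2156 reads in those libraries, 1720 in replicate 14 and 1555, 1794, 1675, 1696 and 1817 in *GMR/+* (0.24, adjusted p = 0.019 without replicate 14; 0.19, adjusted p = 0.12 with it). In both troponin genes replicate 14 lay within the control range and the other 4 libraries lay above it. *Act57B* had 27818, 28012, 24086 and 29072 reads in those libraries, 24114 in replicate 14 and 20479 to 24019 in *GMR/+* (0.27, adjusted p = 0.036 without replicate 14; 0.23, adjusted p = 0.091 with it). The remaining calls without replicate 14 were *Msp300* (0.26, adjusted p = 0.036) and *Zasp66*, a PDZ-domain protein of the Z-disc (0.20, adjusted p = 0.045).

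**Figure D2:**
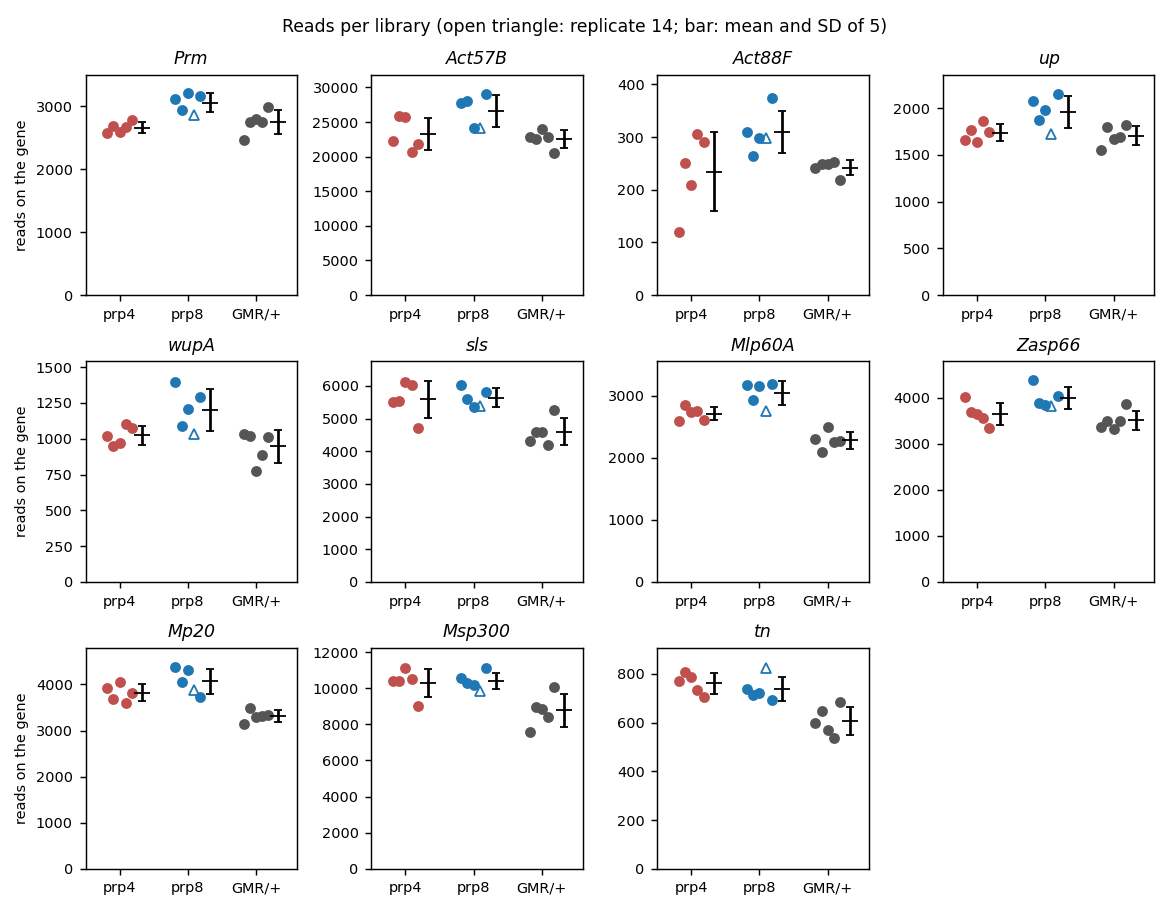
Reads per library (vertical axis from 0) of the 11 sarcomere genes called in at least 1 comparison of gene levels, in *GMR > prp4 RNAi*, *GMR > prp8 RNAi* and *GMR/+*, with the mean and SD of 5 libraries; the open triangle is replicate 14. *tn*, *Mlp60A* and *Mp20* lie above every control library in both knockdowns, and in *up* and *wupA* replicate 14 lies at 1720 and 1030 reads, below the other *GMR > prp8 RNAi* libraries.

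The knockdowns were also compared with each other, in a fit of all 15 libraries. With all libraries 0 of 28 members passed, where 1.37% of all genes were called higher in *GMR > prp4 RNAi* and 0.987% lower. DESeq2 called 2 members lower, *Prm* and *Zasp52*, and scaling by library size alone called 1, *Prm*, with the shares of all genes not given for either. Without replicate 14, where *TpnC41C* also passed the filter on low counts, 3 of 29 members were lower in *GMR > prp4 RNAi* than in *GMR > prp8 RNAi*, where 3.77% of all genes were called higher and 2.55% lower. *Prm*, the thick filament core protein paramyosin, had 2580, 2689, 2591, 2674 and 2777 reads in *GMR > prp4 RNAi*, against 3121, 2934, 3207 and 3161 in the 4 *GMR > prp8 RNAi* libraries and 2858 in replicate 14. Its groups did not overlap with or without replicate 14, and the log2 difference was -0.21 (adjusted p = 0.019) without it and -0.17 (adjusted p = 0.096) with it. *Mlp60A* and *up* were the others, at -0.19 (adjusted p = 0.035) and -0.20 (adjusted p = 0.036) without replicate 14. Of the members 0 lay higher and 3 lower without overlap when all libraries were used, where 0.933% of all genes lay higher and 1.97% lower; without replicate 14 these were 1 and 5 members, where 4.33% of all genes lay higher and 4.36% lower.

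By role, no thick filament gene was called against the controls in the edgeR test. DESeq2 without replicate 14 called *Mlc2* (0.18, adjusted p = 0.018) and *Prm* (0.17, adjusted p = 0.045) higher in *GMR > prp8 RNAi*. Of the 5 tested with edgeR 0 passed in either knockdown, with or without replicate 14. Their log2 differences were -0.058 to -0.0047 in *GMR > prp4 RNAi* and 0.046 to 0.14 in *GMR > prp8 RNAi*, or 0.097 to 0.18 without replicate 14. *Mhc*, the most abundant of them by reads, had 15391, 15810, 15490, 17490 and 16734 reads in *GMR > prp4 RNAi*, then 18516, 17339, 18569, 16331 and 19394 in *GMR > prp8 RNAi* and 15847, 17757, 16998, 16588 and 18076 in *GMR/+*. All 3 groups overlapped. The 4 muscle actins had log2 differences of -0.11 to 0.061 in *GMR > prp4 RNAi* with none called, and of -0.11 to 0.34 in *GMR > prp8 RNAi* with *Act88F* called. Without replicate 14 they were -0.13 to 0.37, with *Act57B* called as well.

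Among tropomyosins, troponins and tropomodulin, 0 of 7 tested passed in *GMR > prp4 RNAi*, and the log2 differences were -0.0013 to 0.13. In *GMR > prp8 RNAi* 0 of 7 passed with replicate 14 and 2 of 7 without it, the troponin genes *up* and *wupA* above. Of the 4 titin-like and kinase-domain giants 1 rose in each knockdown, *sls*. *Strn-Mlck*, a titin-like protein that shares its gene with a myosin light chain kinase, had 2274, 2606, 2499, 2366 and 2330 reads in *GMR > prp4 RNAi* and 2157, 2224, 2268, 2007 and 2239 in *GMR/+*. The groups did not overlap, and it missed the threshold in the edgeR test with an adjusted p of 0.054 and a log2 difference of 0.16. Of the alternatives, only DESeq2 (adjusted p = 0.023) and leaving out *GMR > prp4 RNAi* replicate 6 (edgeR adjusted p = 0.036) called it higher. Exons of *Strn-Mlck* also overlap antisense genes, with the same limit on strand as for *sls*. Of the 5 Z-disc genes tested *Mlp60A* rose in both knockdowns, and *Actn* (alpha-actinin), *Zasp52* and *Mlp84B* passed in neither. The 3 members outside these classes, *Mp20*, *Msp300* and *tn*, all rose in *GMR > prp4 RNAi*, and in *GMR > prp8 RNAi* *Mp20* and *tn* did.

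**Figure D3:**
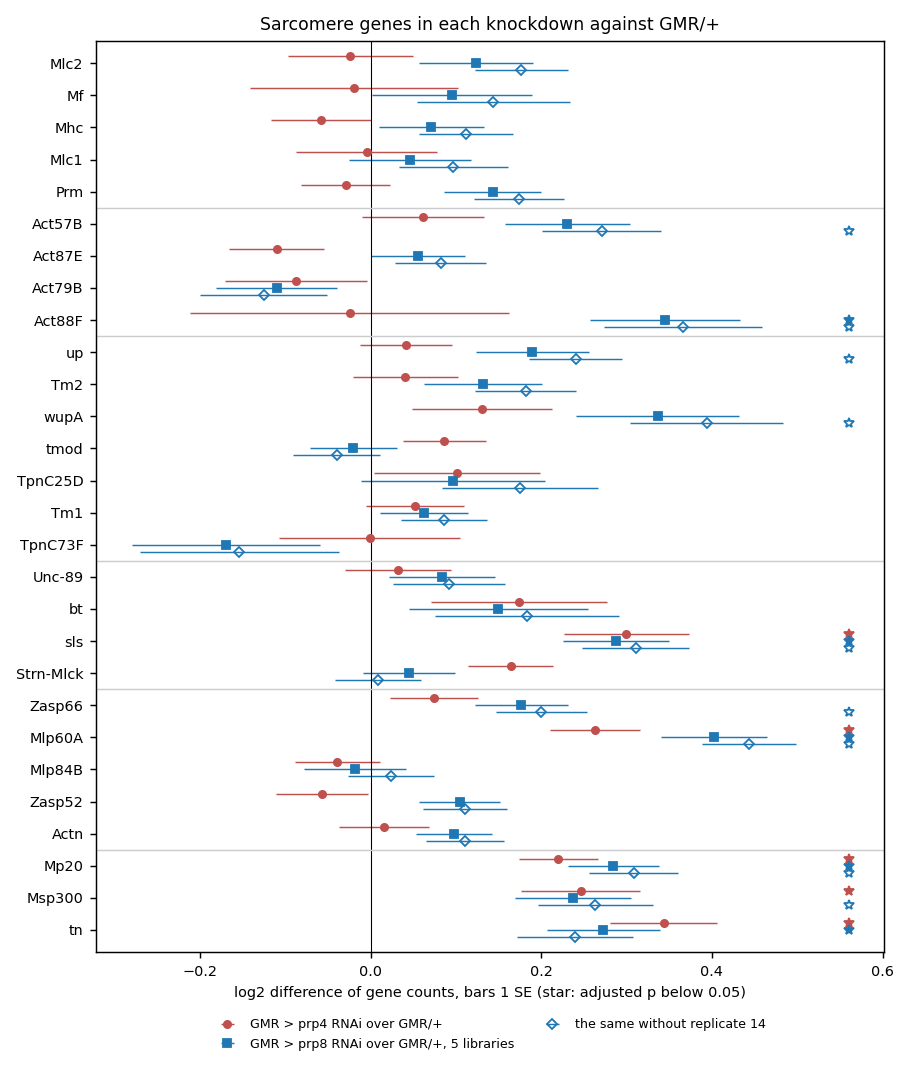
Log2 difference of gene counts against *GMR/+* (horizontal axis, bars 1 SE) for the 28 sarcomere genes tested, grouped by role, in *GMR > prp4 RNAi*, in *GMR > prp8 RNAi* and in *GMR > prp8 RNAi* without replicate 14; a star marks an adjusted p under 0.05. Stars of *GMR > prp4 RNAi* stand only at *sls*, *Mlp60A*, *Mp20*, *Msp300* and *tn*, and no thick filament gene has one.

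Of 51 other muscle genes and relatives tested, taken from lists of related function, 5 were called in *GMR > prp4 RNAi* and 2 in *GMR > prp8 RNAi*, 9.8% and 3.92%, which is near the shares of all genes given above. Of 15 genes of sarcomere assembly and muscle regulation 0 rose and 1 fell in *GMR > prp4 RNAi*, *capt*, an actin-binding cyclase-associated protein (log2 difference -0.21, adjusted p = 0.031). In *GMR > prp8 RNAi* 2 of the 15 rose, *sals*, which controls thin filament length (0.27, adjusted p = 0.017), and *CAP*, an adhesion protein of muscle attachment sites (0.17, adjusted p = 0.042). Of 6 genes of excitation-contraction coupling that were tested 1 rose in *GMR > prp4 RNAi*, the calcium channel gene *Ca-alpha1D* (0.21, adjusted p = 0.016), and 0 in *GMR > prp8 RNAi*. Of 11 attachment genes *mys*, a beta integrin, rose (0.18, adjusted p = 0.036) and *Tsp*, the tendon matrix protein thrombospondin, fell (-0.55, adjusted p = 5.0e-05) in *GMR > prp4 RNAi*, with 0 calls in *GMR > prp8 RNAi*. Of 12 genes of muscle energy supply 0 passed in either knockdown. Of 7 non-muscle relatives of the members *Act42A*, a cytoplasmic actin, fell in *GMR > prp4 RNAi* (-0.23, adjusted p = 0.043), with 0 calls in *GMR > prp8 RNAi*. Without replicate 14 *CAP* lost its call and the small heat shock protein gene *l(2)efl* was called higher in *GMR > prp8 RNAi* (0.43, adjusted p = 0.034).

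Markers of other head cells moved in the same libraries. Of all genes 4.97% were called higher and 4.66% lower in *GMR > prp4 RNAi*, and 2.36% and 2.37% in *GMR > prp8 RNAi*. Of 11 photoreceptor genes 1 rose in *GMR > prp4 RNAi*, *inaC* (0.21), and 2 fell, the rhodopsins *Rh4* (-0.81) and *Rh3* (-0.73). In *GMR > prp8 RNAi* 3 fell, *Rh4* (-0.83), *inaD* (-0.46) and *trp* (-0.30). The summed reads of all 11 were 1395134 to 1554468 in *GMR > prp4 RNAi*, 1324227 to 1539719 in *GMR > prp8 RNAi* and 1458351 to 1538654 in *GMR/+*. Of 5 glial genes 2 fell in *GMR > prp4 RNAi* (*moody* and *Gs2*) and 0 in *GMR > prp8 RNAi*, and their summed reads of 42125 to 45761 in *GMR > prp4 RNAi* lay below the 47874 to 53654 of *GMR/+*, with 42827 to 49029 in *GMR > prp8 RNAi*. Of 4 hemocyte genes, 3 of them tested, *Hml* fell in *GMR > prp4 RNAi* (-0.61). The summed reads, mostly those of *Hml*, were 1391 to 1742 in *GMR > prp4 RNAi*, 1587 to 2289 in *GMR > prp8 RNAi* and 2145 to 2494 in *GMR/+*. The other 2 tested were not lower in *GMR > prp4 RNAi*. *NimC1* had means of 214.6 reads there and 189.8 in *GMR/+*, and *eater* 28.6 and 28.0, neither called. No neuronal (7 tested) or fat body (6 tested) gene was called, and the 3 midgut enzymes found summed to at most 2 reads in any library. Without replicate 14 the same 3 photoreceptor genes and again 0 glial and 0 hemocyte genes were called lower in *GMR > prp8 RNAi*. The fat body sums varied most, with 26765 to 203975 reads in *GMR > prp4 RNAi*, 15827 to 94215 in *GMR > prp8 RNAi* and 33867 to 76928 in *GMR/+*. Nearly all of these reads were those of 1 gene, *Lsp2*, with 25577 to 202339 in *GMR > prp4 RNAi*. The part of these cell types in the sarcomere gene differences was not tested.

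Splicing was compared by the use of each junction relative to the other junctions of its gene. The measure is the log2 difference in reads of a junction minus that of its gene, fitted on the summed reads of the gene's tested junctions. It is called log2 use here. In *GMR > prp4 RNAi* against *GMR/+* 2 of the 21 members tested differed, *Zasp52* (adjusted p = 2.3e-14) and *Strn-Mlck* (adjusted p = 0.0012), where 0.562% of all genes tested were called. By single junctions these were 4 of 270, where 0.167% of all junctions were called, and all 4 were used less in *GMR > prp4 RNAi*. For *GMR > prp8 RNAi* against *GMR/+* 0 of 21 members passed, where 0.291% of all genes were called. Without replicate 14 again 0 of 21 passed, where 0.59% of all genes were called. With all 5 libraries limma's diffSplice and the gene-level F test also called 0.

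*Zasp52*, a PDZ and LIM protein needed to build Z-discs, lies on chromosome 2R from 15762263 to 15817306 (build BDGP6, minus strand), with 22 annotated isoforms. The junction that differed most spans its 79-nt intron from 15763271 to 15763349, the last intron of 17 isoforms, between the exons at 15763350 to 15763589 and 15762565 to 15763270. It had 38, 20, 37, 46 and 32 reads in *GMR > prp4 RNAi*, then 98, 118, 107, 44 and 114 in *GMR > prp8 RNAi* and 129, 97, 114, 112 and 119 in *GMR/+*. Every *GMR > prp4 RNAi* library lay below every control, and in *GMR > prp8 RNAi* the value of 44 was that of replicate 14. The log2 use was -1.62 in *GMR > prp4 RNAi* against *GMR/+* (adjusted p = 4.4e-15). It was -0.37 in *GMR > prp8 RNAi* with replicate 14 and -0.19 without it, neither past the threshold.

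The neighbouring 56-nt intron of the same 17 isoforms, from 15763590 to 15763645, had 64, 92, 84, 65 and 64 reads in *GMR > prp4 RNAi*, then 65, 76, 71, 72 and 78 in *GMR > prp8 RNAi* and 75, 78, 85, 73 and 61 in *GMR/+*. These 3 groups overlapped (log2 use 0.083 in *GMR > prp4 RNAi*). The *Zasp52* gene counts also overlapped, with 4423, 4348, 4078, 3702 and 3863 reads in *GMR > prp4 RNAi* and 3923, 4563, 4168, 4380 and 4438 in *GMR/+* (log2 difference -0.057, adjusted p = 0.57). The 240-nt exon just before the 79-nt intron had 169 to 215 reads in *GMR > prp4 RNAi* and 263 to 305 in *GMR/+* without overlap, and its log2 use of -0.38 did not pass in the test of exon use (adjusted p = 0.12). The 1008-nt last exon had 324 to 377 reads in *GMR > prp4 RNAi* and 394 to 441 in *GMR/+* (log2 use -0.14, adjusted p = 1). Reads inside the intron are not analysed here.

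A second *Zasp52* junction joins the ends of annotated introns in a pair that no annotated isoform has. It spans 287 nt from 15764836 to 15765122 and had 6, 10, 9, 10 and 8 reads in *GMR > prp4 RNAi*, then 21, 29, 44, 4 and 27 in *GMR > prp8 RNAi* and 27, 21, 19, 20 and 20 in *GMR/+*. The *GMR > prp4 RNAi* libraries lay below every control, and replicate 14 with 4 reads was the lowest of all 15 libraries. The log2 use was -1.21 in *GMR > prp4 RNAi* (adjusted p = 0.024). Of the reads that leave its 5' splice site at 15765122, this junction took 9.3% ± 1.8 in *GMR > prp4 RNAi*, 17.9% ± 9.2 in *GMR > prp8 RNAi* (21.4% without replicate 14) and 19.5% ± 3.3 in *GMR/+* (SD, n = 5 each). The rest went to the 3' splice site at 15763830 by a junction of 16 isoforms. At its own 3' splice site, 15764836, the junction took 9.6% ± 5.7 in *GMR > prp4 RNAi*, 20.1% ± 11.2 in *GMR > prp8 RNAi* and 21.3% ± 6.7 in *GMR/+*, and there the groups overlapped.

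Between the knockdowns *Zasp52* differed in junction use (adjusted p = 5.0e-07), the 1 member called of 21, where 0.268% of all genes were called. The log2 use of the 79-nt intron was -1.25 in *GMR > prp4 RNAi* against *GMR > prp8 RNAi* (adjusted p = 1.1e-07), and that of the 287-nt junction was -1.31 (adjusted p = 0.014). Without replicate 14 these were -1.43 (adjusted p = 7.1e-12) and -1.58 (adjusted p = 4.7e-05). Without replicate 14 *Strn-Mlck* was called as well (adjusted p = 0.0077), 2 of 21 members, where 0.637% of all genes were called. Of the 23 *Zasp52* junctions tested the 2 described were the only ones called in any comparison.

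*Strn-Mlck* lies on 2R from 15946631 to 15989800 (minus strand), with 10 isoforms. Its 398-nt intron from 15947607 to 15948004 is the last intron of 4 isoforms and had 34, 31, 27, 37 and 30 reads in *GMR > prp4 RNAi*, then 51, 56, 63, 29 and 56 in *GMR > prp8 RNAi* and 59, 70, 53, 47 and 63 in *GMR/+*. *GMR > prp4 RNAi* lay below the control without overlap, and replicate 14 with 29 reads lay in the *GMR > prp4 RNAi* range. The log2 use was -0.98 in *GMR > prp4 RNAi* against *GMR/+* (adjusted p = 0.00024). Against *GMR > prp8 RNAi* it was -0.73 (adjusted p = 0.059), and -0.88 without replicate 14 (adjusted p = 0.0019).

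This intron follows an exon, from 15948005 to 15948710, that another junction skips. Of the reads at the shared 3' splice site at 15947607 the 398-nt intron took 71.6% ± 5.5 in *GMR > prp4 RNAi*, 80.6% ± 6.8 in *GMR > prp8 RNAi* (83.5% without replicate 14) and 83.6% ± 4.6 in *GMR/+*, and the *GMR > prp4 RNAi* libraries did not overlap the controls. On the other side of the exon, at the 5' splice site at 15948807, the junction into the exon took 73.2% ± 5.6 in *GMR > prp4 RNAi*, 70.7% ± 4.7 in *GMR > prp8 RNAi* and 73.3% ± 9.6 in *GMR/+*, and all groups overlapped. The groups were separate at one end of this exon and overlapped at the other.

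The other *Strn-Mlck* junction called lies at an alternative first exon. The 405-nt intron from 15951467 to 15951871, the first intron of 1 isoform, had 17, 8, 13, 7 and 9 reads in *GMR > prp4 RNAi*, then 17, 17, 21, 14 and 21 in *GMR > prp8 RNAi* and 16, 24, 24, 29 and 29 in *GMR/+* (log2 use -1.27 in *GMR > prp4 RNAi*, adjusted p = 0.0020). Only replicate 6 of *GMR > prp4 RNAi* overlapped the controls, with 1 read more than the lowest. The competing 1369-nt intron of 4 isoforms, which joins the same 3' splice site to an upstream exon, had 66, 61, 57, 46 and 42 reads in *GMR > prp4 RNAi* and 40, 35, 32, 39 and 23 in *GMR/+* (log2 use 0.58, adjusted p = 0.37). As a share of the reads at that site, the 405-nt intron took 20.5%, 11.6%, 18.6%, 13.2% and 17.6% in *GMR > prp4 RNAi*, then 28.8%, 31.5%, 31.8%, 21.5% and 36.2% in *GMR > prp8 RNAi* and 28.6%, 40.7%, 42.9%, 42.6% and 55.8% in *GMR/+*. The *GMR > prp4 RNAi* shares lay below every control share, and those of *GMR > prp8 RNAi* overlapped the control range. Replicate 14, at 21.5%, was the lowest of the *GMR > prp8 RNAi* libraries.

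*tn* lies on 2R from 18987042 to 19009246 (plus strand) with 6 isoforms, and its junction use was not called in any comparison (adjusted p near 1 in each). Its 7 tested junctions had log2 use between -0.29 and 0.27 in *GMR > prp4 RNAi* against *GMR/+*. The 1745-nt intron from 18995147 to 18996891 of all 6 isoforms had 49, 35, 47, 34 and 39 reads in *GMR > prp4 RNAi*, then 24, 32, 33, 45 and 31 in *GMR > prp8 RNAi* and 26, 30, 29, 28 and 23 in *GMR/+*. It lay higher in every *GMR > prp4 RNAi* library than in the controls, as the whole gene did.

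The test of exon use took the exons of the authors' annotation in the same way. In *GMR > prp4 RNAi* 2 of 28 members differed from *GMR/+*, *tn* (adjusted p = 1.2e-06) and *Strn-Mlck* (adjusted p = 0.029), where 0.962% of all genes were called; these were 4 of 501 exons, where 0.33% of all exons were called. Against *GMR/+*, 0 of 28 members passed in *GMR > prp8 RNAi*, where 0.601% of all genes were called. Without replicate 14 again 0 passed, where 0.617% of all genes were called. The gene-level F test called 2 in *GMR > prp8 RNAi*, *Actn* and *Mlp60A*, with the share of all genes not given for this test. Between the knockdowns *tn* was the 1 member called (adjusted p = 0.00032), where 0.32% of all genes were called. Without replicate 14 *tn*, *Zasp52* (adjusted p = 0.018) and *Strn-Mlck* (adjusted p = 0.034) were called, where 0.871% of all genes were called.

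In *tn* a single exon carried the difference. It is counted from 19002697 to 19003327, 631 nt, and starts where the 329-nt last exon of 1 of the 6 isoforms starts in the newer annotation. It had 34, 32, 29, 31 and 34 reads in *GMR > prp4 RNAi*, then 8, 6, 10, 30 and 9 in *GMR > prp8 RNAi* and 6, 12, 4, 12 and 4 in *GMR/+*. The *GMR > prp4 RNAi* libraries lay above all other libraries but replicate 14, whose 30 reads fell among them. The log2 use was 1.73 in *GMR > prp4 RNAi* against *GMR/+* (adjusted p = 2.8e-07) and 1.31 against *GMR > prp8 RNAi* (adjusted p = 9.1e-05), or 1.87 without replicate 14 (adjusted p = 3.4e-08). The exon had too few reads to be tested in *GMR > prp8 RNAi* against *GMR/+*, and it rests on at most 34 reads per library.

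**Figure D4:**
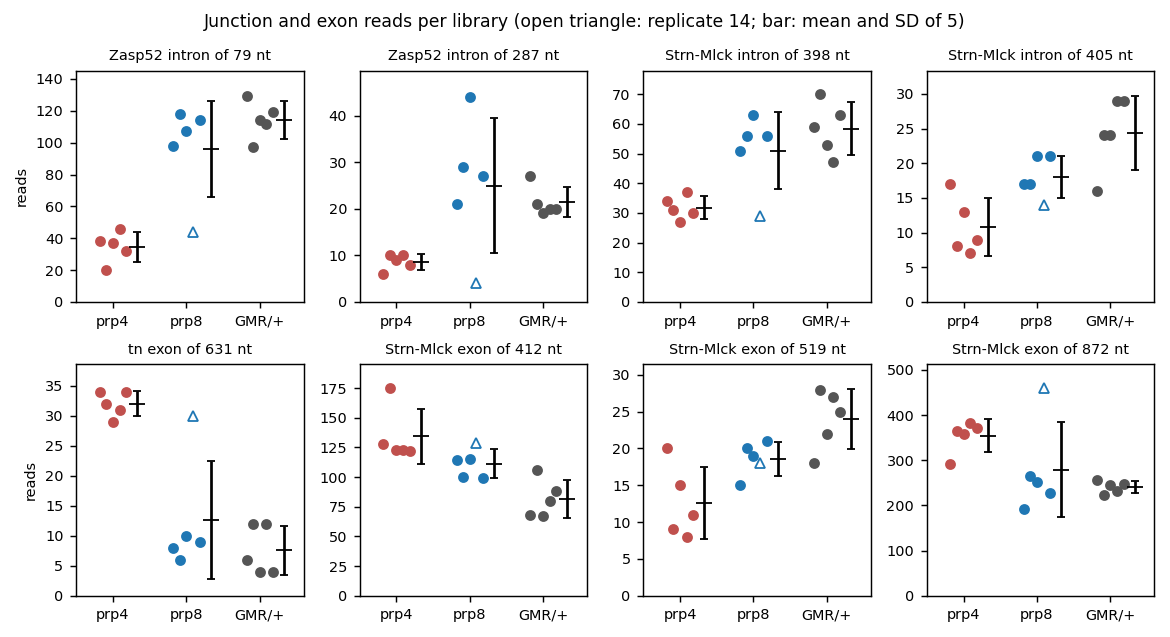
Reads per library (vertical axis from 0) on 4 junctions and 4 exons of *Zasp52*, *Strn-Mlck* and *tn* in *GMR > prp4 RNAi*, *GMR > prp8 RNAi* and *GMR/+*, with the mean and SD of 5 libraries; the open triangle is replicate 14. Replicate 14 has 44 reads on the *Zasp52* intron of 79 nt and 30 on the *tn* exon of 631 nt, among the *GMR > prp4 RNAi* values in both.

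Of the *Strn-Mlck* exons, 2 were used more and 1 less in *GMR > prp4 RNAi* than in *GMR/+*. The coding 412-nt exon from 15953426 to 15953837 had 128, 175, 123, 123 and 122 reads in *GMR > prp4 RNAi*, then 114, 100, 115, 129 and 99 in *GMR > prp8 RNAi* and 68, 106, 67, 80 and 88 in *GMR/+* (log2 use 0.58, adjusted p = 0.0049). The coding 872-nt exon from 15953902 to 15954773 had 291, 365, 359, 383 and 372 reads in *GMR > prp4 RNAi*, then 192, 265, 251, 460 and 227 in *GMR > prp8 RNAi* and 257, 224, 246, 232 and 248 in *GMR/+* (log2 use 0.41, adjusted p = 0.040). Both lay above every control in *GMR > prp4 RNAi*, and the 460 reads of replicate 14 were the highest of all libraries. The exon that was used less, 519 nt from 15951872 to 15952390, borders the 405-nt intron above and precedes it on the minus strand. It had 20, 9, 15, 8 and 11 reads in *GMR > prp4 RNAi* and 18, 28, 22, 27 and 25 in *GMR/+* (log2 use -1.06, adjusted p = 0.0082). The call of the gene was lost without control replicate 3, 4 or 5 (adjusted p = 0.078, 0.080 and 0.056) or without *GMR > prp4 RNAi* replicate 7 or 10 (adjusted p = 0.34 and 0.081).

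In *Zasp52* the exons with their 3' end at 15765123 were lowest in *GMR > prp4 RNAi*. The longest, 4429 nt to 15769551, had 359, 344, 367, 395 and 332 reads in *GMR > prp4 RNAi*, then 601, 601, 622, 396 and 600 in *GMR > prp8 RNAi* and 482, 493, 455, 466 and 554 in *GMR/+*. Without replicate 14, which had 396, the groups did not overlap, with *GMR > prp4 RNAi* lowest and *GMR > prp8 RNAi* highest. The log2 use passed only between the knockdowns without replicate 14 (-0.50, adjusted p = 0.0030), with -0.41 when it was kept (adjusted p = 0.10) and -0.33 against *GMR/+* (adjusted p = 0.31). The 2131-nt and 1591-nt exons lie within this one, share its reads and showed the same order.

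Choices at shared splice sites were described for all members with such sites, by the share each junction took of the reads at its site. There were 57 such sites in 14 genes, of which *Zasp52* held 9 and *Strn-Mlck* 3. The *GMR > prp4 RNAi* libraries and the controls did not overlap at 4 of the 57 sites, or 7.02%, where 5.83% of the 1648 such sites of all genes did not, so the count is near the background. The 4 were the 3 sites of *Zasp52* and *Strn-Mlck* given above and 1 in *Msp300*. At the *Msp300* 5' splice site at 5202303 on 2L the junction to 5202764 took 28.9%, 28.4%, 30.4%, 34.7% and 35.6% in *GMR > prp4 RNAi*, then 36.8%, 33.9%, 33.3%, 40.0% and 32.2% in *GMR > prp8 RNAi* and 48.9%, 50.0%, 36.0%, 53.2% and 45.5% in *GMR/+*. All *GMR > prp4 RNAi* libraries lay below the controls, control replicate 3 being lowest at 36.0% and within the *GMR > prp8 RNAi* range. In the test of junction use *Msp300* did not pass in any comparison.

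In *GMR > prp8 RNAi* with all 5 libraries the shares did not overlap the controls at 2 of 57 sites, or 3.51%, where 4.25% of all sites did not. At the *Mhc* 5' splice site at 16786815 on 2L the junction to 16787516 took 18.6% ± 2.4 in *GMR > prp8 RNAi* and 25.1% ± 1.8 in *GMR/+*, with 18.7% ± 4.9 in *GMR > prp4 RNAi*, where the libraries overlapped the controls. The gap was narrow, with a highest share of 22.1% in *GMR > prp8 RNAi* and a lowest of 22.2% in *GMR/+*. At the *Zasp66* 5' splice site at 8635082 on 3L the junction to 8637438 took 8.6% ± 1.9 in *GMR > prp8 RNAi* (9.2% without replicate 14) and 5.8% ± 0.6 in *GMR/+*, with 6.0% ± 1.4 in *GMR > prp4 RNAi*. Neither gene passed the test of junction use. Without replicate 14 the shares did not overlap at 5 of 57 sites, or 8.77%, where 7.4% of all sites did not, 2 of them in *Mhc*, 2 in *Zasp66* and 1 in *wupA*. These counts too are near the background. At the *Mhc* 5' splice site at 16774858, 1 of these, the groups still overlapped in the main junction, which took 86.6% in *GMR > prp4 RNAi*, 87.5% in *GMR > prp8 RNAi* and 85.8% in *GMR/+*. The *wupA* site is the 5' splice site at 18113257 on X, where the junction from 18109571 took 54.2% ± 7.2 in *GMR > prp4 RNAi*, 52.8% ± 3.1 in *GMR > prp8 RNAi* (51.6% without replicate 14) and 58.2% ± 4.3 in *GMR/+*. Elsewhere in *wupA* the groups overlapped in the share of each of the 4 introns that compete for the 3' splice site at 18106932 on X, of which the 2 most used had 31.4% and 31.6% in *GMR > prp4 RNAi*, 34.0% and 27.9% in *GMR > prp8 RNAi* and 30.8% and 33.4% in *GMR/+*.

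**Figure D5:**
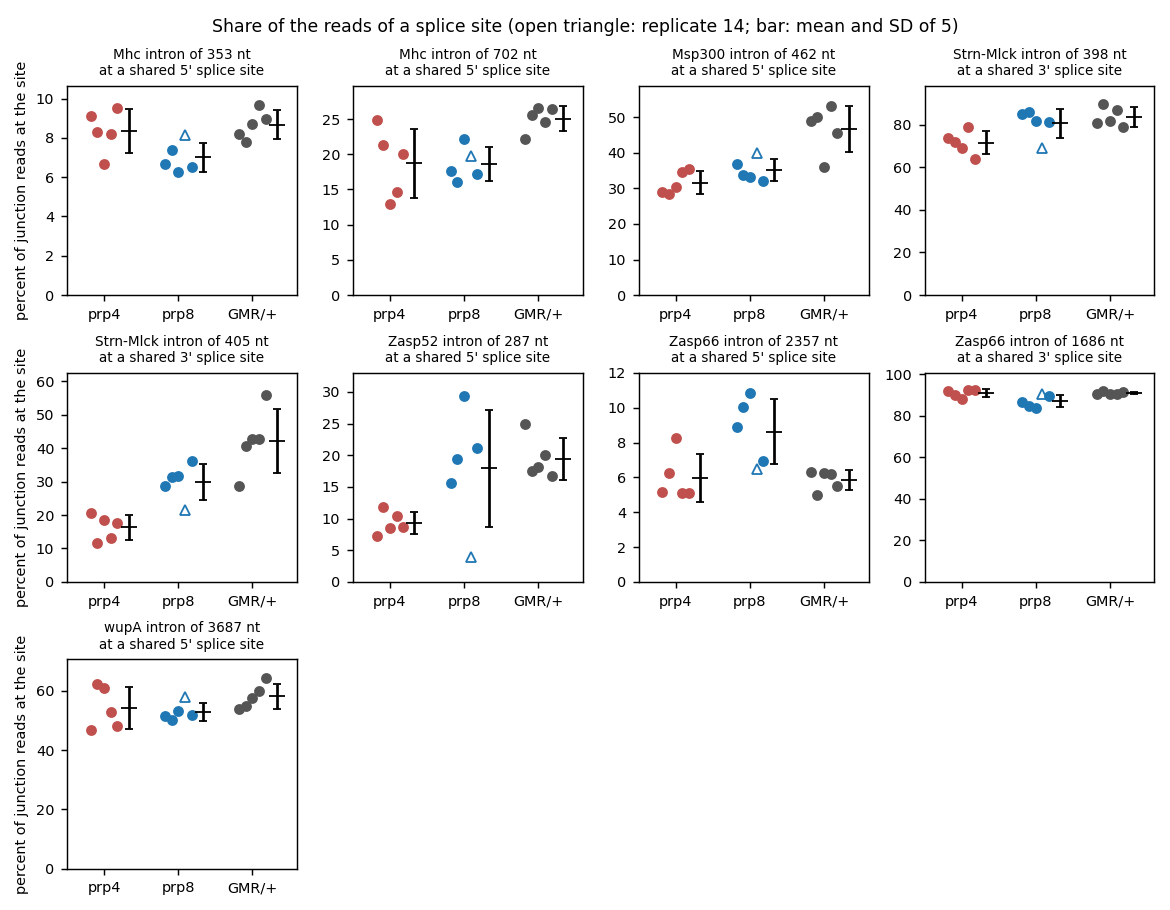
Percent of the junction reads of a shared splice site taken by 1 junction (vertical axis from 0), per library in *GMR > prp4 RNAi*, *GMR > prp8 RNAi* and *GMR/+*, with the mean and SD of 5 libraries, at the sites where a knockdown did not overlap the controls; the open triangle is replicate 14. The *Strn-Mlck* intron of 405 nt has a mean of 16.3% in *GMR > prp4 RNAi*, 30.0% in *GMR > prp8 RNAi* and 42.1% in *GMR/+*.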

How the data were processed

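RNA of fly heads was sequenced by the study (mRNA-Seq, paired-end). The authors aligned reads to BDGP6 with STAR 2.5.3a, removed ribosomal and mitochondrial reads, resampled each library to equal depth with PORT and deposited unscaled counts of reads on genes, exons and junctions (Ensembl release 88). Features were located in Ensembl release 115: 32 members matched by identifier and 1 by symbol. Exons of 3 members overlap another gene on the same strand (*Act57B*, *Actn*, *Msp300*). Those of 7 overlap an antisense gene (*Act87E*, *Tm1*, *TpnC25D*, *sls*, *Strn-Mlck*, *fln*, *Actn*). Overlapping exons of the table share reads. Members, lists and alternatives were chosen with earlier results of these data known. Named are all members, every junction or exon of a member past the threshold, for *Zasp52*, *Strn-Mlck* and *tn* also the 3 junctions with the smallest p per comparison, and of other lists only genes past the threshold. Competing junctions, neighbouring features and splice sites of other members were added after their values were seen.

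Genes were kept by filterByExpr, scaled by TMM and tested with the quasi-likelihood test of edgeR 4.0.16 in R 4.3.3, 5 libraries against 5, and in all 15 libraries between knockdowns. Junctions and exons listed with 1 gene were tested, where 5 or more libraries held 10 or more reads, with diffSpliceDGE, with Simes p-values per gene. All p-values were adjusted by Benjamini-Hochberg over everything tested, with a threshold of 0.05. They set the difference between genotypes against the spread between these libraries. Alternatives were limma-voom and diffSplice (limma 3.58.1), DESeq2 1.42.0, library size scaling, other filters, other sample sets, F tests and each library left out. limma-voom and DESeq2 without replicate 14 were added after the data had been seen. Scripts were tested on simulated data. Tables and figures used Python 3.11.15, pandas 2.3.3, numpy 2.4.6 and matplotlib 3.10.9. Resampling to 11753627 to 11979892 gene reads keeps depth alike, and a single junction rests on far fewer reads than its gene.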

Additional observations from a re-analysis of the deposited data

Results flagged for a closer look

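Of 165 groups of 5 libraries examined on the named genes, junctions and exons, 13 had 1 library far from the other 4. The chance rate of about 1 in 20 holds for features not chosen by their values. Many of these were named for passing a threshold in the same libraries, so the count cannot be set against that rate. The library was replicate 14 of *GMR > prp8 RNAi* 5 times. It had 44 reads on the *Zasp52* junction from 15763271 to 15763349, 234 on the *Zasp52* exon from 15765123 to 15767253, 396 on that from 15765123 to 15769551, 460 on the *Strn-Mlck* exon from 15953902 to 15954773 and 30 on the *tn* exon from 19002697 to 19003327. Both *Zasp52* exons passed a test only when replicate 14 was left out, and they share reads. Replicate 11 of *GMR > prp8 RNAi* had 22 reads on the *Zasp52* junction from 15803488 to 15814728.

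In *GMR > prp4 RNAi*, replicate 6 had 29 reads on that *Zasp52* junction and 291 on the *Strn-Mlck* exon from 15953902 to 15954773. Replicate 7 had 63 reads on the *Strn-Mlck* junction from 15953221 to 15953425 and 175 on the exon next to it, from 15953426 to 15953837. Replicate 8 had 27 reads on the *tn* junction from 18987692 to 18989775, and replicate 10 had 45 on the *Zasp52* junction from 15774758 to 15777177. In *GMR/+*, replicate 1 had 27 reads on the *Zasp52* junction from 15764836 to 15765122.

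The knockdowns differed from each other in junction use of *Zasp52* (adjusted p = 5.0e-07) and in exon use of *tn* (adjusted p = 0.00032), both by diffSpliceDGE on all 15 libraries.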

How the results depend on the processing

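No called result changed direction under any alternative. Apart from the edgeR fits without replicate 14, the share of all genes called is not given for the alternatives. Their counts therefore show how the number of members called varied and cannot be set against the background. For members higher in *GMR > prp8 RNAi* than in *GMR/+*, 5 in the test reported, DESeq2 gave 9, and without replicate 14 limma-voom gave 10 and DESeq2 12, the last pair added after the data had been seen. Between the knockdowns, 0 in the test reported, DESeq2 gave 2, library size scaling 1 and, without replicate 14, limma-voom 3 and DESeq2 7. For junction use the filter of at least 50 counts left 1 member in *GMR > prp4 RNAi* against *GMR/+* in place of 2 and 0 between the knockdowns in place of 1, where the F test gave 2. For exon use in *GMR > prp4 RNAi* against *GMR/+*, 2 in the test reported, the F test gave 4 and the filter of 50 counts 1. For exon use the F test gave 2 in *GMR > prp8 RNAi* against *GMR/+* in place of 0 and 3 between the knockdowns in place of 1, and the filter of 50 counts gave 0 there. That filter removes the *tn* exon, which has at most 34 reads, from testing.

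Leaving out 1 library at a time gave 3 to 6 members in *GMR > prp4 RNAi* against *GMR/+* for gene levels, 2 for junction use throughout and 1 to 2 for exon use. For *GMR > prp8 RNAi* against *GMR/+* it gave 2 to 9, 0 and 0. Between the knockdowns it gave 0 to 3, 1 to 2 and 1 to 3, with the highest count in each when replicate 14 was left out. No paired analysis was possible because the replicate numbers, 1 to 15, link no library of a genotype to a library of another.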
